A study of Mus musculus with 469 samples.

Results

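Omp, Stoml3, S100a5 and Umodl1 are 4 genes of the mature olfactory sensory neuron, taken by name from the 23281 genes of the deposited tables. Their levels were followed in single-cell libraries of mouse olfactory epithelium that passed a limit of 1000 genes with a value of 1 or more. Each library came from 1 cell captured on a Fluidigm C1 microfluidic chip, and all animals were 8 weeks old. Levels are given as CPM, the deposited value of a gene scaled to a library sum of 1000000, and a gene was called found at 10 CPM or more.

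Olfactory sensory neurons are replaced throughout life from basal cells of the epithelium. A precursor that transcribes the proneural gene Neurog1 divides and gives immature neurons with Gap43 and Gng8, which then gain the odour transduction machinery in their cilia. Removal of the olfactory bulb, the target of these axons, kills mature neurons and leads to renewed production of precursors, while the new neurons lack their target.

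Omp encodes olfactory marker protein, a cytoplasmic protein by which mature olfactory neurons are usually recognised and which shapes the time course of the odour response. Stoml3 encodes a stomatin-like membrane protein of olfactory cilia. S100a5 encodes a calcium-binding protein whose level in these neurons is known to follow odour-driven activity. Umodl1, also called olfactorin, encodes a zona pellucida domain protein of olfactory and vomeronasal neurons.

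Cells positive for Neurog1-eGFP were sorted from FVB Neurog1-eGFP mice without injury (46 kept of 61), 5 days after olfactory bulbectomy (48 of 51) and 14 days after it (25 of 26). Cells positive for OMP-eGFP were sorted from B6 OMP-eGFP mice 14 days after bulbectomy (42 of 50) or after engraftment of the cells into the epithelium by transplantation (29 of 89). The unsorted reference held wild-type B6;129SF1/J (F1) epithelium without injury in 2 runs (68 cells kept of run 1 and 70 of run 2). The labels name no animal, so each group counts as 1 sample and no comparison between groups has a replicate check. No test was made, and the intervals below are 95% exact Clopper-Pearson intervals that cover the counting of cells only. Strain differs with the sort and cannot be told apart from it between the Neurog1-eGFP, OMP-eGFP and reference cells. Whether the OMP-eGFP reporter sits in the Omp gene is not given in the sources used here, and its part in the Omp levels was not tested.

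Kept libraries held between 13369 and 2186030 recovered fragments, and the group medians ran from 501827 in the engrafted cells to 1347930 in the OMP-eGFP cells at 14 days. Libraries with 5 or more of 10 sustentacular cell markers numbered 1, 2 and 1 in the Neurog1-eGFP sorts (uninjured, 5 and 14 days), 3 and 3 in the OMP-eGFP sorts (14 days and engrafted) and 97 in the reference. Sustentacular cells are the supporting cells of the epithelium, and every reference library held a sustentacular sum above 0, from 26.9 to 145856 CPM.

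The genes lie on chromosome 7 (Omp), chromosome 3 (Stoml3 and S100a5) and chromosome 17 (Umodl1). In the GENCODE annotation Omp lies inside Capn5 on the same strand, where reads could be split between the genes. Capn5 was found in 0 to 9 cells of any group, with a mean of at most 11.5 CPM. Umodl1 overlaps gene models on both strands, and no source used here states that counting used strand.

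Since the 4 genes were high together in the OMP-eGFP sorts, the 250 bases before the start of each were searched for motifs known from olfactory genes. RefSeq (GRCm38.p6) gave 3 of the 4 windows, each on the plus strand, for Stoml3 (chr3:53488457-53488706), S100a5 (chr3:90608272-90608521) and Umodl1 (chr17:30954433-30954682). They are printed 5′ to 3′ with motif matches in capitals.
Stoml3: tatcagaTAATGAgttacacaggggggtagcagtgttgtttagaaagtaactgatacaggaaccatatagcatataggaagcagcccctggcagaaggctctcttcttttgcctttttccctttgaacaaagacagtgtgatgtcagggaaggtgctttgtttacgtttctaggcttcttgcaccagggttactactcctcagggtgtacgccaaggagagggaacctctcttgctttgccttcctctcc
S100a5: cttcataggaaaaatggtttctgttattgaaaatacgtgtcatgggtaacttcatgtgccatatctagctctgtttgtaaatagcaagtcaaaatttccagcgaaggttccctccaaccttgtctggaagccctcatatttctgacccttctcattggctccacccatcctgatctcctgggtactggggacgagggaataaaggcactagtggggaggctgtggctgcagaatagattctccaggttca
Umodl1: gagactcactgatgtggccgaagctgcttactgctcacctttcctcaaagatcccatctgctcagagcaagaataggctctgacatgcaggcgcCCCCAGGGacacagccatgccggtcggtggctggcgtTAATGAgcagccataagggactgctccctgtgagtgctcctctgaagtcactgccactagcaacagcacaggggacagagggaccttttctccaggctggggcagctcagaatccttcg
The search took both strands for CCCNNGGG, the core palindrome of the Olf-1/EBF motif, the homeodomain motif TAATNA, its subset TAATTA, and the TATA box TATAAA. Umodl1 held CCCCAGGG, a match to CCCNNGGG, which 11.8% of 32851 RefSeq windows of this length also held. Stoml3 and Umodl1 each held TAATGA, a match to TAATNA, which 24.3% of those windows held. The S100a5 window held no match. A match is a string of letters and not a measured binding site.

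Omp was the most widely found member in the Neurog1-eGFP sorts and varied widely from 0 upward within each of them. In uninjured cells it ran from 0 to 7821 CPM with a median of 47.2. At 5 days it ran from 0 to 2295 CPM with a median of 0. At 14 days it ran from 0 to 732 CPM, again with a median of 0. The groups overlapped at the low end, and the cells above 2295 CPM were all uninjured. In the OMP-eGFP cells Omp ran from 0 to 6008 CPM at 14 days (median 660) and from 0 to 10418 CPM after engraftment (median 2375). The reference ran from 0 to 49130 CPM (median 1764), so the sorted OMP-eGFP cells lay inside its range.

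Stoml3 was near 0 in most Neurog1-eGFP cells and high in most OMP-eGFP cells. It ran from 0 to 7065 CPM in uninjured Neurog1-eGFP cells (median 3.57), from 0 to 1423 CPM at 5 days (median 0) and from 0 to 158.1 CPM at 14 days (median 0). At 14 days 1 cell of 25 had it, and the next highest cell held 9.61 CPM. In OMP-eGFP cells at 14 days Stoml3 ran from 9.15 to 9642 CPM with a median of 2012, and no cell was at 0. Engrafted cells ran from 0 to 12813 CPM (median 1094) and reference cells from 0 to 13494 CPM (median 842). The 14-day OMP-eGFP and Neurog1-eGFP cells thus overlapped little in Stoml3.

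S100a5 was carried by few Neurog1-eGFP cells. It ran from 0 to 19991 CPM in uninjured cells, from 0 to 856 CPM at 5 days and from 0 to 465.99 CPM at 14 days, with a median of 0 in each. The highest pair of uninjured cells held 93.9% of the S100a5 sum of that group. Those libraries held 19991 and 7644 CPM and were also the highest for Omp and Umodl1, with precursor sums of 77.6 and 58.1 CPM against a group median of 11220. Their immature sums were 10960 and 1296 CPM against a group median of 6119, so the cell with 19991 CPM also held immature neuron genes. That cell had 1340 genes and 77284 fragments, the fewest fragments of its group. The OMP-eGFP cells ran from 0 to 10237 CPM at 14 days (median 677) and from 0 to 14643 CPM after engraftment (median 49.9). The reference ran from 0 to 37817 CPM with a median of 795.

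Umodl1 had a median of 0 in all 3 Neurog1-eGFP groups, whose highest cells held 3481, 778 and 1499 CPM (uninjured, 5 and 14 days). The cell with 1499 CPM was the 1 library of its group with 5 or more sustentacular markers, and the next held 31.02 CPM. OMP-eGFP cells ran from 0 to 5892 CPM at 14 days (median 612) and from 0 to 7384 CPM after engraftment (median 1051). Reference cells ran from 0 to 6419 CPM with a median of 300.6. Umodl1 was at 0 in 9 of 42 OMP-eGFP cells at 14 days, where Omp was at 0 in 1 and Stoml3 in 0.

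**Figure D1:**
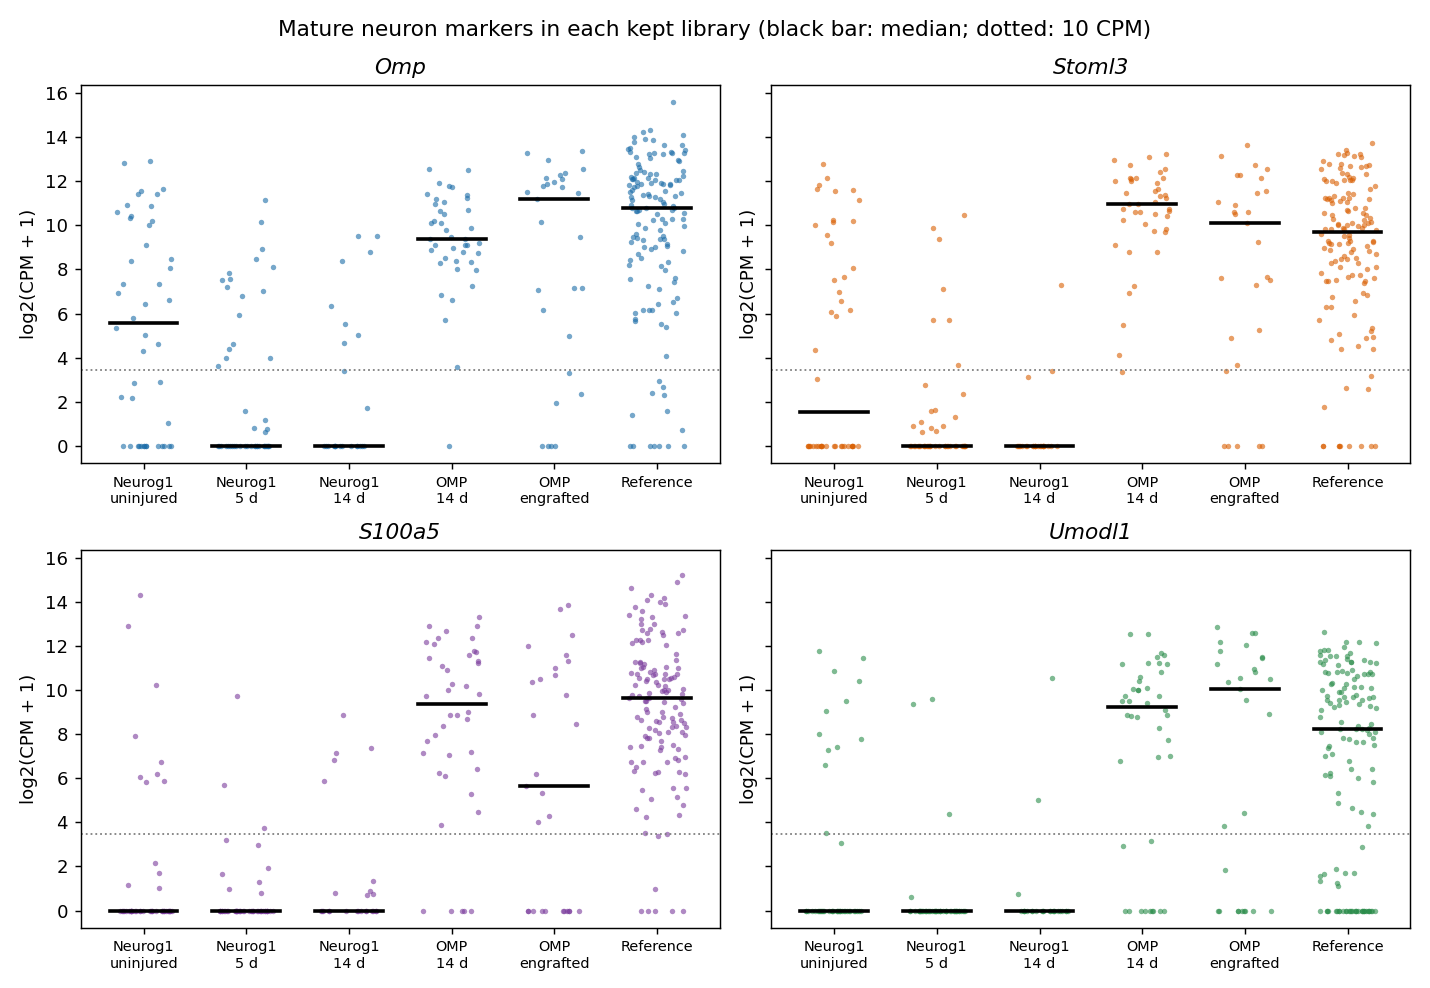
Level of each member in every kept library, as log2(CPM + 1), by group; each point is 1 cell, the black bar is the group median and the dotted line marks 10 CPM. Medians of S100a5 and Umodl1 lie at 0 in all 3 Neurog1-eGFP groups, while all 4 members have medians above 10 CPM in both OMP-eGFP groups and the reference.

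By share of cells Omp led in each Neurog1-eGFP group, while the order of the other members differed between groups. In uninjured Neurog1-eGFP cells S100a5 was found in 9 of 46 (19.6%, interval 9.4% to 33.9%) and Umodl1 in 12 of 46 (26.1%, 14.3% to 41.1%), below Omp in 27 and Stoml3 in 22. At 5 days each of S100a5 and Umodl1 was found in 3 of 48 cells (6.2%), with Omp in 17 and Stoml3 in 7. At 14 days S100a5 was found in 5 of 25 cells (20%, 6.8% to 40.7%) and Umodl1 in 2 (8.0%, 1.0% to 26.03%), with Omp in 8 and Stoml3 in 1. The S100a5 interval at 14 days thus covered its uninjured share, and after injury all 3 rarer members rested on 7 cells or fewer per group.

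In the OMP-eGFP sort at 14 days Omp and Stoml3 were found in the same 41 of 42 cells. S100a5 was found in 37 (88.1%, 74.4% to 96.02%) and Umodl1 in 31 (73.8%, 57.96% to 86.1%). In engrafted cells Omp was found in 22 of 29, Stoml3 in 23, S100a5 in 18 (62.1%, 42.3% to 79.3%) and Umodl1 in 19 (65.5%, 45.7% to 82.1%). In the reference S100a5 was the most widely found member, at 94.9% of cells, and Umodl1 the least, in 98 cells (71.01%, 62.7% to 78.4%). Umodl1 shares in the 3 non-Neurog1 groups lay within each other's intervals.

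At equal depth the order of Omp and Stoml3 turned in 2 groups where they differed by 1 cell. With every library thinned to 20000 fragments and 1 shallower engrafted library left out, the expected share of cells with 1 fragment or more was 52.9% for Omp, 44.3% for Stoml3, 17.2% for S100a5 and 24.1% for Umodl1 in uninjured Neurog1-eGFP cells. In OMP-eGFP cells at 14 days the thinned shares were 94.1%, 95.01%, 81.6% and 73.8% in the same order. Unthinned, the shares at 10 CPM were 58.7%, 47.8%, 19.6% and 26.1% in the uninjured cells, and 97.6%, 97.6%, 88.1% and 73.8% in the OMP-eGFP cells. In engrafted cells the thinned shares were 72.7% for Omp and 72.4% for Stoml3, against 75.9% and 79.3% unthinned. In the reference they were 87.2% and 85.9%, against 89.9% and 90.6% unthinned. A single fragment in 20000 stands for 50 CPM, a higher limit than 10 CPM.

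Per transcript length, as FPKM (fragments scaled by the authors to transcript length and library size), Stoml3 and S100a5 had the highest medians in the 14-day OMP-eGFP cells and the reference. In OMP-eGFP cells at 14 days the median FPKM was 2911 for Stoml3, 2721 for S100a5, 338.2 for Omp and 122.9 for Umodl1. In the reference the medians were 4579 FPKM for S100a5, 1288 for Stoml3, 933 for Omp and 60.005 for Umodl1. Umodl1 was lowest per length in both. In engrafted cells the order differed, with medians of 1590 FPKM for Stoml3, 1196 for Omp, 207.6 for Umodl1 and 188.1 for S100a5. The S100a5 transcript is short, and its FPKM per unit of deposited signal varied from 5.46 to 14.3 over cells, against 0.313 to 0.327 for Umodl1, so S100a5 levels per length are the least certain of the 4.

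Between Neurog1-eGFP groups the mean levels of all 4 members were lower after bulbectomy. Mean Omp was 854 CPM in uninjured cells and 118.2 CPM at 5 days, a log2 ratio of -2.84 on the scale of mean CPM + 1. For Stoml3 the means were 734 and 68.7 CPM (log2 ratio -3.40), for S100a5 640 and 19.6 CPM (-4.96) and for Umodl1 253.9 and 30.4 CPM (-3.02). All 4 were at least 2-fold lower, as were 26.3% of the 10054 genes compared, while 20.9% of genes were at least 2-fold higher and no member was. Of the 10 other mature neuron markers, 9 could be compared (Cngb1, a channel subunit of the cilium, was at 0 in every cell), and 8 were lower with a median log2 ratio of -1.20 against -0.13 over all genes. Among these, Cnga4, a subunit of the transduction channel, had a log2 ratio of -3.54, Gnal, the olfactory G protein alpha subunit, -0.67, and Rtp2, a receptor transport protein, 0.34. Sustentacular markers went the other way, with 8 of 8 compared at least 2-fold higher (median 5.03), and 2 of the 5-day libraries held 94.6% of their sum. Without libraries of 5 or more such markers the member ratios were -2.76 for Omp, -3.32 for Stoml3, -4.93 for S100a5 and -2.82 for Umodl1. Leaving out the highest cell of each group for each gene gave 5-day means of 71.8 CPM for Omp, 39.9 for Stoml3, 1.83 for S100a5 and 14.5 for Umodl1. Without it the uninjured S100a5 mean was 210 CPM, and the S100a5 ratio was -6.22.

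At 14 days the log2 ratios to uninjured cells were -3.13 for Omp, -6.52 for Stoml3, -4.04 for S100a5 and -2.03 for Umodl1. All 4 were again at least 2-fold lower, beside 29.9% of 9992 genes (22% were higher by as much), and the uninjured cells are shared with the 5-day comparison. Mean levels at 14 days were 96.9 CPM for Omp, 7.02 for Stoml3, 37.9 for S100a5 and 61.2 for Umodl1. Without the highest cell of each group these became 0.726 CPM for Stoml3, 20.1 for S100a5 and 1.32 for Umodl1, so the Stoml3 and Umodl1 means each rested on 1 cell. The 9 other mature markers were all lower too, with a median log2 ratio of -0.98 against -0.17 over all genes. The 4 sustentacular markers that could be compared were higher, with a median of 2.79, and without libraries of 5 or more such markers the Umodl1 ratio was -6.63.

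From 5 to 14 days the ratios differed between the members and rested on few cells. Stoml3 had a log2 ratio of -3.12 and S100a5 one of 0.92, while Omp stood at -0.28. At 14 days 1 cell held 90.1% of the Stoml3 sum, and at 5 days 1 cell held 90.9% of the S100a5 sum. The intervals of the S100a5 shares, 1.3% to 17.2% at 5 days and 6.8% to 40.7% at 14 days, overlapped. Stoml3 was at least 2-fold lower, as were 27.1% of 9844 genes, and no member was at least 2-fold higher, where 23.8% of genes were. The Umodl1 ratio of 0.99 turned to -2.74 without the highest cell of each group and to -3.82 without the libraries of 5 or more sustentacular markers. The Omp ratio turned to 0.41 with libraries of 2000 or more genes, and the S100a5 ratio became 2.90 without the highest cells. No direction of Omp or Umodl1 between these days is therefore given, and the Stoml3 and S100a5 ratios are read as values only.

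At 14 days after bulbectomy the OMP-eGFP cells had higher means than the Neurog1-eGFP cells for every member. Mean Stoml3 was 2748 against 7.02 CPM, a log2 ratio of 8.42, the widest of the 4. Mean S100a5 was 1953 against 37.9 CPM (5.65), mean Umodl1 1110 against 61.2 CPM (4.16) and mean Omp 1314 against 96.9 CPM (3.75). All 4 were at least 2-fold higher, beside 32.4% of 10022 genes (28.6% were lower by as much). These sorts chose cells by an Omp and by a Neurog1 reporter, genes of a late and an early stage. A higher level of Omp and of other mature neuron genes is therefore no independent result. The 9 other mature markers were all higher, with a median log2 ratio of 2.45 against 0.04 over all genes. Ano2, the calcium-gated chloride channel of olfactory cilia, had a ratio of 5.42 and Slc17a6, the vesicular glutamate transporter of these neurons, one of 1.03. Of the 10 sustentacular markers 9 could be compared and all 9 were higher too, with a median of 4.39, and 2 of the OMP-eGFP libraries held 95.8% of their sum. Without libraries of 5 or more sustentacular markers the member ratios were 3.88 for Omp, 8.53 for Stoml3, 5.64 for S100a5 and 8.90 for Umodl1. Without the highest cell of each group the ratios were 10.55 for Stoml3, 6.38 for S100a5 and 8.74 for Umodl1.

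Engrafted and 14-day OMP-eGFP cells differed less. Mean Omp was 2711 CPM after engraftment and 1314 CPM at 14 days, a log2 ratio of 1.04, and the only member at least 2-fold higher, where 21.7% of 9623 genes were. Mean Umodl1 was 1738 against 1110 CPM (0.65). Stoml3 (2278 against 2748 CPM, -0.27) and S100a5 (1770 against 1953 CPM, -0.14) changed sign with the settings and have no direction. No member was at least 2-fold lower, where 35% of genes were. The other mature markers were lower in 8 of 9, with a median log2 ratio of -0.40 against -0.34 over all genes.

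Compared with the reference, uninjured Neurog1-eGFP cells had log2 ratios of -2.16 for Omp, -1.47 for Stoml3, -2.24 for S100a5 and -1.84 for Umodl1. All 4 were at least 2-fold lower, as were 32.6% of 11061 genes, and 22.4% were higher by as much. Without the highest cell of each group the S100a5 ratio was -3.72. The median of the 9 other mature markers was -1.02, and that of the 10 sustentacular markers was -8.25.

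Co-detection was read in the 3 Neurog1-eGFP groups together (46, 48 and 25 cells), where 53 had no member. Omp alone was found in 24 cells, Stoml3 alone in 6, S100a5 alone in 4 and Umodl1 alone in 4. Omp with Stoml3 and neither of the others was found in 8 cells, Omp with S100a5 in 2 and Omp with Umodl1 in 2. Omp and Stoml3 with S100a5 were found in 5 cells, the same pair with Umodl1 in 5, and all 4 members in 6. Every cell with 2 or more members thus had Omp.

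Within a pair, the gene found in more cells is always the one found alone more often, so the counts below restate the shares. They give an order across cells and not a time course within one, and pooling mixes the injury groups. The part of ease of detection in this order was not tested. Of cells with only 1 of the pair, Omp was the one found in 28 of 34 against Stoml3 (82.4%, interval 65.5% to 93.2%). By group it was 8 against 3 in uninjured cells, 13 against 3 at 5 days and 7 against 0 at 14 days. It was the one found in 39 of 43 against S100a5 (90.7%, 77.9% to 97.4%), and likewise against Umodl1. Stoml3 was the one found in 19 of 25 against S100a5 and in 19 of 25 against Umodl1 (76%, 54.9% to 90.6%, for each). S100a5 and Umodl1 had no order, with 11 cells each way and 6 with both.

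The order of Stoml3 and S100a5 was not the same in every group. In uninjured cells all 9 cells with S100a5 also had Omp and Stoml3, and 13 had Stoml3 without S100a5. At 14 days 4 cells had S100a5 without Stoml3, 1 had both and 0 of 25 had Stoml3 without S100a5. Of the 5 cells with S100a5 at 14 days, 2 had Omp and all 5 had Gap43, the axon growth protein of immature neurons. Their highest held 465.99 CPM of S100a5 with 0 CPM of Omp and Stoml3, an other mature marker sum of 3444 CPM and a sustentacular sum of 866 CPM. The part of other cells' RNA in these calls was not tested, and whether the order differs between groups was not tested either.

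All 6 cells with the complete set were uninjured (6 of 46). After bulbectomy 0 of 48 cells at 5 days and 0 of 25 at 14 days had all 4. The exact intervals of these counts reach 7.4% and 13.7%, and the second covers the uninjured share of 13.04%. Cells with no member made up 14 of 46, 26 of 48 and 13 of 25 in the 3 groups (30.4%, 54.2% and 52%).

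Levels were higher in cells with more members. Median Omp was 23.998 CPM in cells with 1 member, 122.9 with 2, 1335 with 3 and 2193 with 4, which partly follows from counting Omp itself. The summed level of the 10 other mature markers, which the count does not use, had medians of 886, 1324, 2718, 7785 and 9245 CPM from 0 to 4 members. The 7 precursor genes went the other way, with median sums of 12031, 9349, 6375, 2502 and 283.2 CPM. The 10 immature neuron genes were highest in the middle, at 6105, 5775, 9298, 9350 and 2854 CPM. An odorant receptor at 50 CPM or more was already present in 37 of the 53 cells with no member (69.8%) and in all 6 cells with 4.

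**Figure D2:**
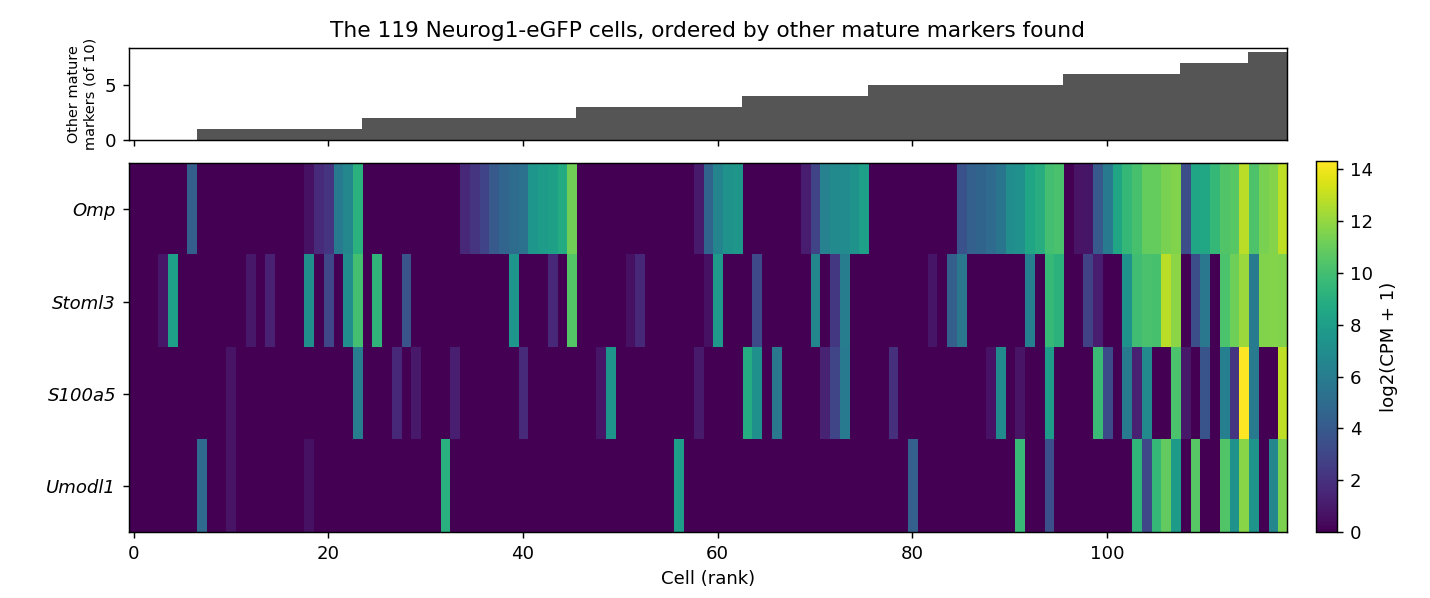
Each column is 1 Neurog1-eGFP cell of the 3 groups, ordered by how many of the 10 other mature neuron markers were found (bars, top) and then by Omp; colour gives log2(CPM + 1) of the 4 members. Omp and Stoml3 are each found in 4 of 24 cells with 0 to 1 other mature markers, the Omp cells all uninjured. Joint expression of all 4 members is seen mainly at the right end.

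Against the number of other mature markers in the cell, Omp had the highest share or tied for it in every class. It was found in 16.7% of 24 cells with 0 to 1 of those markers, 33.3% of 39 cells with 2 to 3, 48.5% of 33 cells with 4 to 5, 78.9% of 19 cells with 6 to 7 and 100% of 4 cells with 8 to 10. Stoml3 was found in 16.7%, 12.8%, 21.2%, 52.6% and 100% over the same classes, at or below 21.2% up to 5 markers in the pooled cells. S100a5 was found in 4.2%, 2.6%, 18.2%, 36.8% and 50%, and Umodl1 in 4.2%, 5.1%, 9.1%, 42.1% and 75.0%. The upper 2 classes hold under 20 cells each. Without them the pooled Omp shares still ran from 16.7% to 48.5%, while the pooled shares of the other members stayed at or below 21.2%. Median fragments per class lay between 887002 and 1082080 and the median number of genes per cell was 2684, 2611, 3040, 3411 and 3484, so cells with more markers also had more genes. The part of this in the shares was not tested. The classes also mix the injury groups, and all 4 cells with 8 to 10 markers were uninjured. Cngb1, 1 of the 10 markers, was at 0 in every cell, so no cell could have all 10.

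Within groups the pooled shares did not hold for each member. In uninjured cells Omp was found in 4 of 10, 4 of 13, 7 of 11, 8 of 8 and 4 of 4 cells from the lowest to the highest class. Stoml3 was found there in 3 of 10, 2 of 13, 6 of 11, 7 of 8 and 4 of 4, so at 4 to 5 markers it had 54.5% where the pooled share was 21.2%. At 5 days Omp was found in 0 of 7, 7 of 19, 6 of 15 and 4 of 7 cells up to the class of 6 to 7 markers. Stoml3 was found there in 1 of 7, 3 of 19, 1 of 15 and 2 of 7. At 14 days Omp was found in 0 of 7, 2 of 7, 3 of 7 and 3 of 4 cells, and Stoml3 in 0 of 7, 0 of 7, 0 of 7 and 1 of 4. In the class of 4 to 5 markers Stoml3 was thus found mainly in uninjured cells, and Omp in all 3 groups. S100a5 was found in that class in 2 of 11 uninjured cells, 1 of 15 at 5 days and 3 of 7 at 14 days. At 14 days it thus equalled Omp there. A class with 0 of 7 cells allows a share of up to 40.96% by its exact interval.

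Genes of earlier stages, which the count does not use, were read in the same pooled classes. Gap43 went from 29.2% through 53.8%, 90.9% and 94.7% to 25.0%, and Neurog1 from 66.7% through 58.97%, 33.3% and 15.8% to 0% (0 of 4 cells). Gng8, a gamma subunit of immature neurons, was in 83.3%, 89.7%, 90.9%, 78.9% and 25.0%. In the class of 6 to 7 markers S100a5 and Umodl1 lay beside a Gap43 share of 94.7%, and in the class of 8 to 10 beside one of 25.0% (1 of 4 cells).

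**Figure D3:**
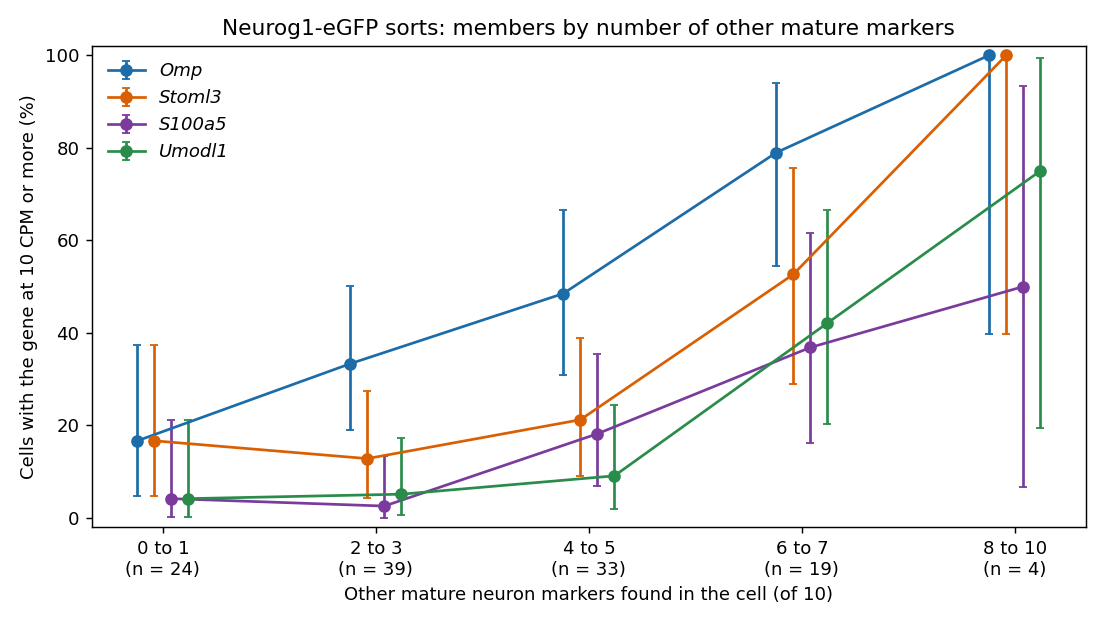
Share of Neurog1-eGFP cells with each member at 10 CPM or more (vertical axis, percent) by the number of the 10 other mature markers found in the cell; bars are 95% exact intervals that cover counting of cells only. Pooled over the 3 groups, Omp rises over each class from 16.7%, while the other members lie at or below 21.2% up to 5 markers; the upper classes hold 19 and 4 cells, and the 4 are all uninjured.

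Omp and Neurog1 messenger RNA were found together in 16 of the 52 Omp cells (30.8%), against Neurog1 in 37 of the 67 cells without Omp (55.2%). The groups differed, with 29.6% against 78.9% in uninjured cells, 35.3% against 38.7% at 5 days and 25% against 58.8% at 14 days. For Umodl1, whose 17 cells were mostly uninjured, the shares were 17.6% with it (3 of 17) and 49.02% without it. Nhlh1, a transcription factor of late precursors, was found in 13 of 30 Stoml3 cells (43.3%) and in 67 of 89 cells without Stoml3 (75.3%). In the direction of maturity, Cnga2, the main transduction channel subunit, was found in 15 of 17 Umodl1 cells (88.2%) and in 37.3% of cells without it. For Omp those figures were 34 of 52 (65.4%) and 19 of 67 (28.4%). Not every pair went this way. The precursor gene Tex15 was found in 64.7% of Umodl1 cells and 56.9% of cells without it, and Neurod1 in 23.5% and 24.5%. At 5 days Cnga2 was found in 42.9% of the 7 Stoml3 cells and 43.9% of the others, and Neurog1 in 42.9% and 36.6%.

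Co-detection was far more complete in the OMP-eGFP cells. At 14 days 28 of 42 cells had all 4 members, 11 had 3, 2 had 2 and 1 had 1. That last cell held no Omp, 9.15 CPM of Stoml3 and a sustentacular sum of 78991 CPM. Umodl1 was the member most often missing, in 10 of the 41 cells with Omp. Neurog1 was found in 0 of 42 cells (exact interval up to 8.41%), yet Gap43 was found in 36 of the 41 cells with Omp (87.8%). Gng8 was found in 7 of 37 cells with S100a5 (18.9%) and in 4 of 5 without it (80%).

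Engrafted cells were split more widely. All 4 members were found in 15 of 29 cells, 3 in 5, 2 in 2, 1 in 3 and none in 4. The 4 cells without a member did not all share a profile, and 2 held sustentacular sums of 9033 and 17507 CPM. Another held an immature sum of 8258 CPM with a precursor sum of 30036 CPM. The last held an immature sum of 5836 CPM, a precursor sum of 4047 CPM and other mature markers at 7335 CPM. Its Omp level was 8.90 CPM, just under the limit of 10 CPM. Gap43 was found in 8 of 22 engrafted cells with Omp (36.4%), against 36 of 41 at 14 days after bulbectomy. Without a replicate animal this difference was not tested, and 60 of the 89 engrafted libraries had been removed for few genes.

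**Figure D4:**
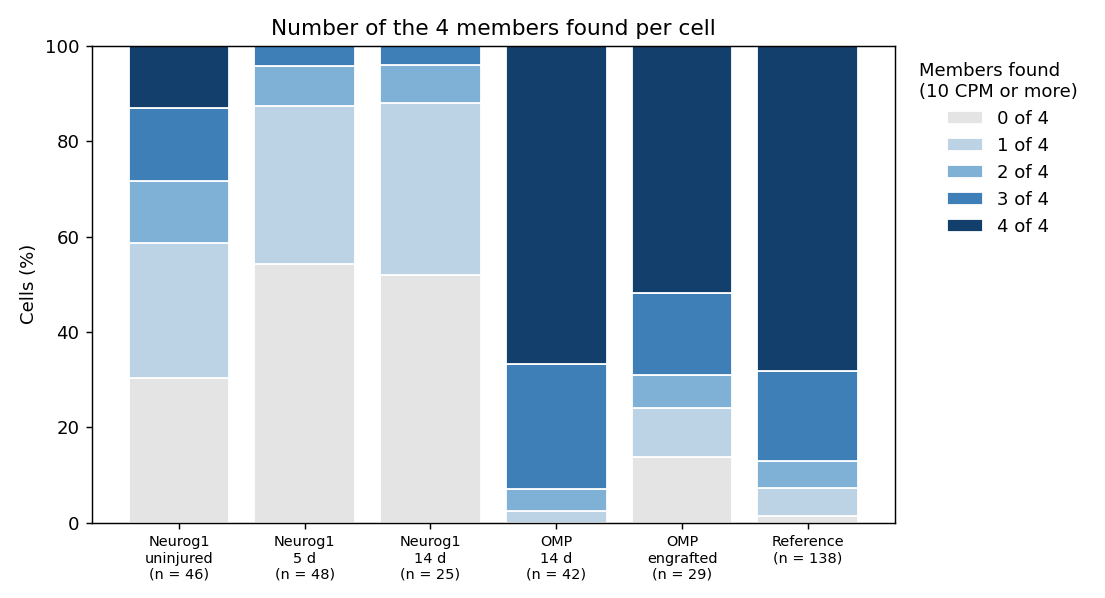
Percent of cells in each group by how many of the 4 members were found at 10 CPM or more; n is the number of kept cells. All 4 members were found in 6 of 46 uninjured Neurog1-eGFP cells, in no Neurog1-eGFP cell after bulbectomy, and in 28 of 42 OMP-eGFP cells at 14 days.

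S100a5 had the highest correlation of the 4 members with Pcp4l1 in the OMP-eGFP and reference groups, though not with each gene linked to activity. Pcp4l1, Kirrel2 (an axonal adhesion protein) and Lrrc3b were listed together as genes linked to activity in mature neurons. Over the 42 OMP-eGFP cells at 14 days the Spearman correlation of CPM with Pcp4l1 was 0.61 for S100a5, 0.26 for Omp, 0.01 for Stoml3 and 0.27 for Umodl1. Over the 29 engrafted cells it was 0.76, 0.47, 0.25 and 0.32, and over the reference cells 0.59, 0.41, 0.42 and 0.34. With Kirrel2, S100a5 had 0.53 against 0.17 for Omp at 14 days, but 0.58 against 0.60 for Omp after engraftment. With Lrrc3b, S100a5 had 0.43, 0.57 and 0.60 in the 3 groups, against 0.33, 0.49 and 0.50 for Omp. Other members came closer to S100a5 at 14 days (Umodl1, 0.40) and in the reference (Stoml3, 0.52). These describe cells that share a sample, chip and depth range, and no p is given. Pcp4l1 was found in 14 of 18 engrafted cells with S100a5 (77.8%) and in 2 of 11 without it (18.2%). In the Neurog1-eGFP cells Pcp4l1 was found in 5 of 17 cells with S100a5 (29.4%) and in 33.3% of cells without it.

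Correlation of members with each other also depended on the group. For Omp and Stoml3 Spearman's rho over cells was 0.77 in uninjured Neurog1-eGFP cells, 0.79 in engrafted and 0.73 in reference cells. It was 0.35 in the OMP-eGFP cells at 14 days, where nearly all cells had both, and 0.23 and 0.33 in the 5-day and 14-day Neurog1-eGFP cells, where few did. In the 14-day OMP-eGFP cells Omp and Umodl1 had 0.56 and Omp and S100a5 had 0.18.

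The genes closest to each member were ranked by Spearman correlation of CPM over all kept cells among 7166 genes, with the members themselves ranked apart. Omp and Stoml3 had 0.80 with each other, above every other gene for both. S100a5 had 0.70 with Stoml3 and 0.69 with Omp, and Umodl1 0.72 with Stoml3 and 0.71 with Omp. Among genes that are not members, Stom, which encodes stomatin, was nearest to Omp (0.75), Stoml3 (0.75) and Umodl1 (0.73), and Kirrel2 was nearest to S100a5 (0.64). Nrn1l (0.70) and Gnal (0.70) came next for Omp, and Gnal (0.73) and Gng13 (0.72) for Stoml3. For S100a5 the next were Nrn1l (0.63) and Stom (0.62), and for Umodl1 Dcdc2a (0.68) and Nrn1l (0.66). These cells share groups, strains and chips, so differences between the sorts enter each value.

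Within the Neurog1-eGFP cells and among 6417 genes Omp and Stoml3 had 0.53 with each other, and the nearest genes outside the members were other ones. Gng13 and Gramd1c (0.51 each) led for Omp, Gramd1c (0.54) and Kcnc4, a potassium channel gene (0.52), for Stoml3. Dcdc2a (0.50) and Slc4a4, a bicarbonate transporter gene (0.48), led for S100a5, and Tusc5 and Fam13a (0.56 each) for Umodl1. All of these values were lower than the leading value over all cells for the same member.

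In the reference the members were found widely in libraries that also held sustentacular RNA. The other mature sum was more than 10 times the sustentacular sum in 31 cells, within 10 times in 58 and below the sustentacular sum by over 10 times in 49, and 13, 18 and 11 of these lay within 2-fold of a limit. Median Omp over these classes was 5229, 2564 and 344.6 CPM. Median Stoml3 was 4422, 1015 and 193.9 CPM, and median S100a5 was 2653, 875 and 322.4 CPM. Median Umodl1 was 1568, 617 and 2.67 CPM, the only member whose median came under 10 CPM.

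Shares fell less than levels. In the 49 cells with a high sustentacular sum S100a5 was still found in 93.9%, Stoml3 in 85.7% and Omp in 83.7%, while Umodl1 was found in 46.9%. In the 31 cells with a high mature sum the shares were 93.5%, 96.8%, 100% and 96.8% in the same order. The median depth was 589024 fragments in the 49 cells and 358464 in the 31. The S100a5 share was thus about as high in the sustentacular-rich libraries as in the mature ones, and no difference in expression is read from it. The parts of doublets and of RNA from other cells in these shares were not tested. In the sorts the members were not uniformly present in libraries of 5 or more sustentacular markers. The 5-day pair with sustentacular sums of 43653 and 61517 CPM had none of the 4, in a group where members were rare. The 1 uninjured Neurog1-eGFP library had all 4. Of the 3 OMP-eGFP libraries at 14 days, 3 had S100a5 and 2 had each other member. Of the 3 engrafted ones, 1 had each of Omp, Stoml3 and S100a5, and 0 had Umodl1.

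The runs of the reference gave the same order of classes for Omp, Stoml3 and Umodl1. Median Omp was 6382, 3638 and 154.3 CPM in run 1 and 4333, 1888 and 414.7 CPM in run 2, whose first class had 6 cells. Median Umodl1 was 1714, 819 and 0 CPM in run 1 and 952, 606 and 64.2 CPM in run 2. Median S100a5 was 4993, 1516 and 345.6 CPM in run 1 but 452.2, 793 and 242.9 CPM in run 2. Without the 9 libraries of over 10000 genes, all of run 1, the S100a5 median of the first class was 6101 CPM. The highest Omp level of any cell, 49130 CPM, was in a library with a sustentacular sum of 96833 CPM, 193.9 CPM of Stoml3 and 72217 fragments.

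**Figure D5:**
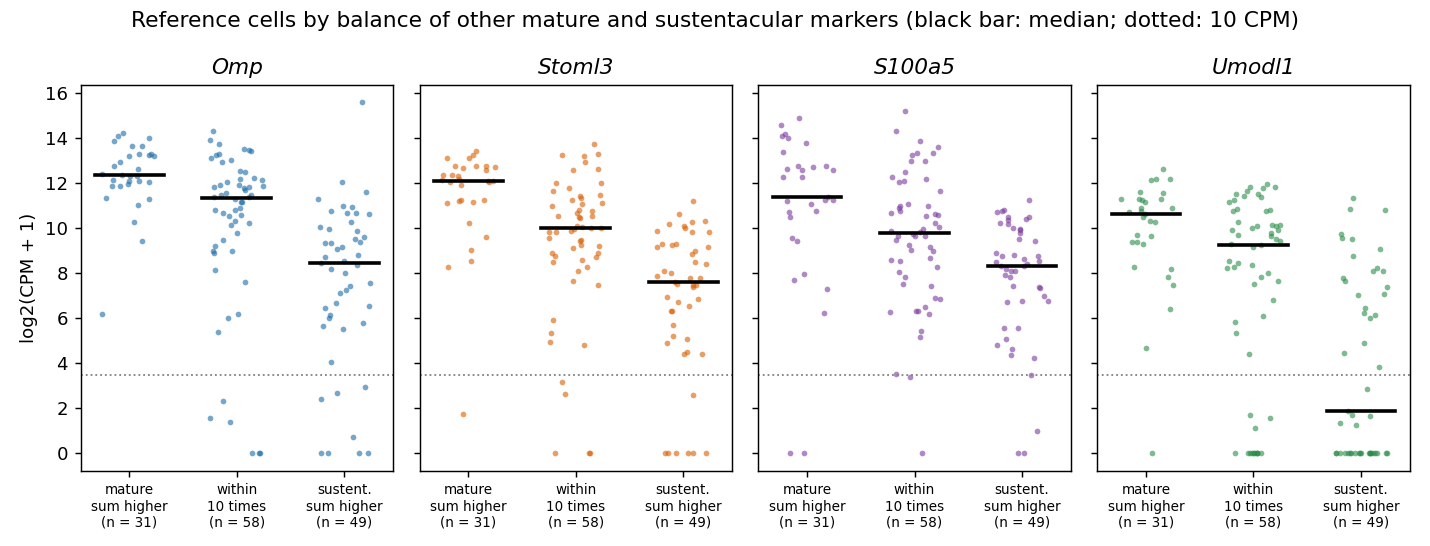
Level of each member as log2(CPM + 1) in reference cells, split by whether the other mature marker sum or the sustentacular marker sum was more than 10 times the other; points are cells, black bars medians and the dotted line 10 CPM. All medians fall from left to right, and that of Umodl1 ends at 2.67 CPM.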

How the data were processed

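Single cells were captured and amplified on the Fluidigm C1 and made into Nextera XT libraries, per the labels' protocols. FastQC, STAR 2.5.2a, Cufflinks 2.2.1, Cuffnorm and mouse build mm9 are named, per the submitters' processing notes; no source used here gives the annotation. The authors deposited 2 tables over all samples. The deposited table named for counts holds a scaled signal with near-equal library sums (559330 to 638698), which the authors made before deposit by a step whose details no source used here gives, and not whole reads (98.96% of its values above 0 were not whole), although counts had been assumed when tests were planned. The other deposited table holds FPKM, scaled by the authors to transcript length and depth.

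Of 23308 entries, 27 with date-like names (0.418% of the signal) were left out. CPM is the signal over its column sum, times 1000000. The value of 1 fragment was recovered per library from repeated steps (tolerance 0.02); a median of 98.2% of values (range 96.4% to 99.7%) came out whole, and the method found the step in 41 of 41 simulated libraries. Each library is 1 cell, and no label names an animal, so each group was 1 sample, no p was computed, and effect sizes are log2 ratios of mean CPM + 1 over genes with a mean of at least 5 CPM in either group. Reads amplified by PCR and lacking molecular identifiers do not count independent molecules, and intervals therefore cover counting error only. No doublet caller was run. No 2 kept libraries of a group were identical. Genes named beside the members were those of the marker lists and the genes with the highest Spearman correlation to each member. The members and lists were chosen with earlier results of these data known. Alternatives were detection at 1 or 50 CPM, pseudocounts of 0.1 and 10, libraries with 2000 or more genes, the FPKM table, thinning, and leaving out the highest library or the reference libraries of over 10000 genes. Leaving out libraries with 5 or more sustentacular markers was chosen after seeing the data. Python 3.11.15, pandas 2.3.3, numpy 2.4.6, scipy 1.17.1 and matplotlib 3.10.9 were used.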

Additional observations from a re-analysis of the deposited data

How the results depend on the processing

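The log2 ratios of 14 to 5 days for Omp and Umodl1, and of engrafted to 14-day OMP-eGFP cells for Stoml3 (-0.44 to 0.16) and S100a5 (-0.42 to 0.13), changed sign over the settings, and the other ratios kept theirs. In all, 50 recomputed values moved by over 1.5 times or, for shares, past their 95% interval. No paired analysis was possible because replicate numbers follow accession order only and no result comes from a test. Animals are not named, so the spread between animals is unknown, and means of the injured Neurog1-eGFP groups rest on few cells. The cause of each shift was not tested except where cells were left out.

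Shares: with libraries of 2000 or more genes, and without libraries of 5 or more sustentacular markers, Omp and Stoml3 were found in 100% of OMP-eGFP cells at 14 days, and Stoml3 also at 1 CPM. At 50 CPM the reference shares were 84.1% for Stoml3 and 86.96% for S100a5, and thinning gave 88.9% for S100a5. Omp and S100a5 were found together in 20 Neurog1-eGFP cells at 1 CPM.

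With libraries of 2000 or more genes, mean CPM was 245.2 (S100a5) and 155.8 (Umodl1) in uninjured Neurog1-eGFP cells, 28.9 (Stoml3) at 5 days and 1889 (S100a5) in the reference. The log2 ratios of 5 days to uninjured became -4.15 (Stoml3), -3.40 (S100a5) and -2.13 (Umodl1), those of 14 days to uninjured -5.89, -2.48 and -1.15 in the same order, those of 14 to 5 days 0.41 (Omp) and -1.73 (Stoml3), and those of uninjured to reference -2.94 (S100a5) and -2.51 (Umodl1).

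Without the highest library of each group, mean CPM was 210 for S100a5 (uninjured), 71.8 for Omp, 39.9 for Stoml3, 1.83 for S100a5 and 14.5 for Umodl1 (5 days), and 0.726 for Stoml3, 20.1 for S100a5 and 1.32 for Umodl1 (14 days). The ratios became -6.22 for S100a5 at 5 days to uninjured. They became -8.43 (Stoml3), -3.32 (S100a5) and -6.30 (Umodl1) for 14 days to uninjured, -4.57, 2.90 and -2.74 for 14 to 5 days, and 10.55, 6.38 and 8.74 for OMP-eGFP to Neurog1-eGFP cells. The S100a5 ratio of uninjured to reference became -3.72, and -2.84 from FPKM.

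With a pseudocount of 10 the Stoml3 ratios were -5.45 (14 days to uninjured), -2.21 (14 to 5 days) and 7.34 (OMP-eGFP to Neurog1-eGFP). Without libraries of 5 or more sustentacular markers Umodl1 had a 14-day mean of 1.32 CPM and ratios of -6.63, -3.82 and 8.90 in that order.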
